A study of Homo sapiens with 6 samples.

Results

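MC2R encodes the receptor through which adrenocortical cells sense ACTH. It is described here with 8 transcription regulators grouped as adrenal lineage factors (NR5A1, NR5A2, NR0B1, GATA4, GATA6, NR2F1, NR2F2 and CITED2). The 9 genes were picked by gene symbol. A row of the value table counted as a member where the platform annotation gave that symbol and no other. Of the 9 genes, 7 had such rows, out of 11963 genes named on the array, with 12 probe sets among the 22215 analysed. NR0B1 and NR2F2 had none under this rule and are not analysed here. A probe set is a group of short array probes that together report 1 signal for a transcript. RNA came from NCI-H295A, an established steroid-producing human adrenocortical carcinoma line grown in medium with a low share of fetal calf serum, insulin and selenium. It was measured on 6 Affymetrix arrays, of which 3 carried RNA of untreated control plates. The other 3 carried RNA of plates given 1 mM 8-Br-cAMP, a cell-permeable analogue of the second messenger cAMP, over the same 18 h. In bulk RNA, fewer expressing cells and less RNA per cell cannot be told apart. The series was deposited under a title on phosphorylation of P450c17 and androgen synthesis, and its design compares transcript levels with and without the messenger that ACTH raises.

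As background, ACTH binds MC2R at the surface of adrenocortical cells, which couples to adenylyl cyclase and raises cAMP. NR5A1, also called SF-1, is the nuclear receptor that most steroidogenic promoters depend on, and NR5A2, or LRH-1, is its close relative, best known from liver, gut and ovary. NR0B1, or DAX-1, opposes NR5A1, while GATA4 and GATA6 act with it on steroidogenic promoters. NR2F1 and NR2F2, the COUP-TFs, are orphan receptors that mostly repress transcription, and CITED2 is a coregulator that works with NR5A1 in building the adrenal primordium.

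In each group the array with number 1 differed from its fellows. The actin 3'/5' control ratio, which grows as RNA loses its 5' part, lay between 1.93 and 2.41 on arrays 2 and 3, but reached 5.72 for control 1 and 38.8 for 8-Br-cAMP 1. The differences of the kept members are therefore also given without both number 1 arrays. Of 10 measured adrenocortical markers, MC2R and NR5A1 among them, 10 were above the filter on low signals. Their summed signals stood apart on the number 1 arrays too, with 25109.8, 7012.4 and 7279.2 on controls 1, 2 and 3, and 46801.2, 19720.5 and 19608.7 on the treated arrays. Of markers of other cell types, those above the filter were 1 of 6 for adrenal medulla (CHGB), 3 of 6 for fibroblasts, 2 of 5 for endothelium, 1 of 4 for immune cells and 1 of 3 for gonadal support cells. TH, DBH, CDH5, PTPRC and LUM were below it. Summed fibroblast markers were 610 to 1240 in controls and 429.5 to 517.4 after treatment. Of the kept ones COL3A1 was lower on every treated array (393.9 to 879.2 against 194.6 to 227.6), while COL1A1 and DCN had overlapping groups. Summed endothelial markers were 183.4 to 231.4 in controls and 304.7 to 419.4 after treatment. VWF was higher on every treated array (13.2 to 123.8 against 224.5 to 292.3), TEK, below the filter, was lower (60.7 to 106 against 11.3 to 20.7), and PECAM1, KDR and CDH5 had overlapping groups. Their part in the results was not tested.

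Across the 3 arrays of each group, CITED2 and NR2F1 had lower signals after 8-Br-cAMP and GATA6 a higher one, each in the same direction in all 3 pairs of arrays with the same number. By mean log2 signal CITED2 was 2.11-fold lower (209357_at) and GATA6 1.57-fold higher, and NR2F1 was 2.52-fold lower on arrays 2 and 3, its value on 8-Br-cAMP 1 being under the filter. NR5A1 and GATA4 differed little, and MC2R and NR5A2 gave signals mostly near or below the filter on low values. None of these differences passed a test over all 6 arrays. Without the number 1 arrays, CITED2 and NR2F1 fell and GATA6 rose.

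**Figure D1:**
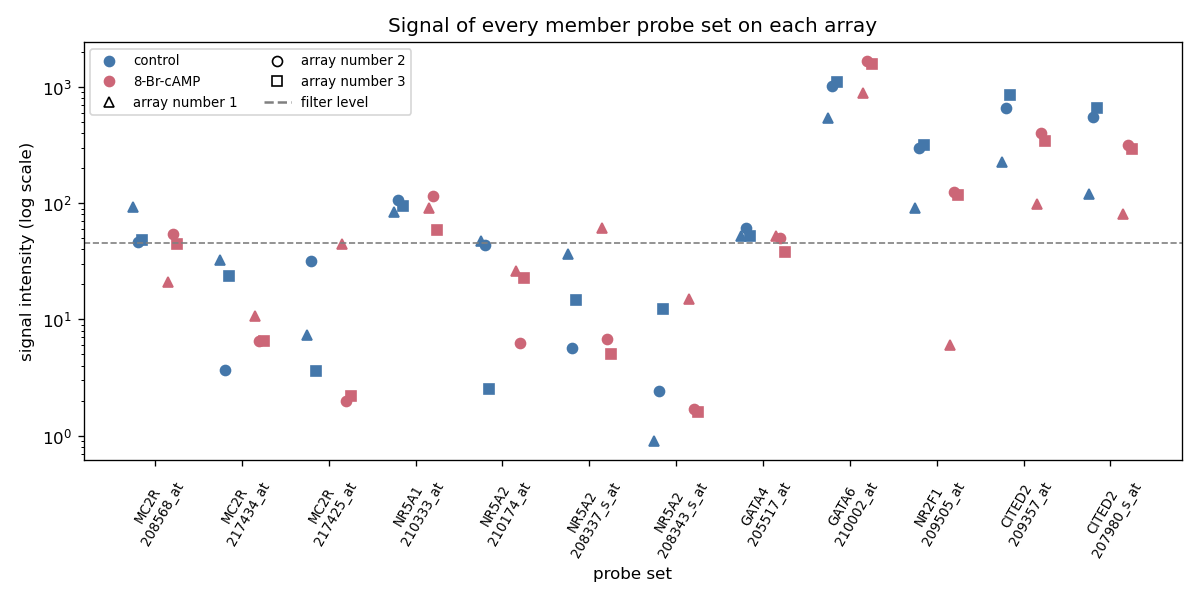
Signal intensity on a log scale for all 12 member probe sets on each of the 6 arrays. Control arrays are blue and 8-Br-cAMP arrays red, symbols give the array number, and the dashed line is the filter level, a signal of 45.5. The probe sets of GATA6, NR2F1 and CITED2 show their lowest signal of each group on the number 1 array (triangles), and 5 probe sets of MC2R and NR5A2 lie mostly below the line.

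The filter kept probe sets whose mean log2 signal over the 6 arrays exceeded the 40th percentile, which is 5.51 as log2 and 45.5 as a plain signal. It kept 13329 probe sets, among them 7 of the 12 member probe sets, for 6 genes. The kept member nearest the filter was the MC2R probe set 208568_at, with a mean of 5.55, and the nearest one outside it the NR5A2 probe set 210174_at, with 4.03 (mean log2 signals). A mean over all arrays can hide low single values, and NR2F1 on 8-Br-cAMP 1 is such a case. The treated means of NR2F1 (5.47) and of MC2R probe set 208568_at (5.22) were under the filter level as log2. Both thus passed it only through their control arrays, and the filter favoured their negative sign. Signals of different probe sets depend on their probes, so levels are not compared between genes, and sums over marker genes serve only to compare arrays.

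The promoter windows of CITED2, NR2F1 and GATA6, the 3 genes that passed the test without the number 1 arrays, and of NR5A1, are shown so that the letters near their start sites can be read beside the signals. Each window runs from 250 bases before to 50 bases after a transcription start listed by RefSeq (GRCh38.p14), in the gene's own direction. Capitals mark matches, on either strand, to the cAMP response element TGACGTCA or its core TGACG, the NR5A1 half-sites AAGGTCA and AAGGCCA, the GATA site AGATAA, the COUP-TF half-site AGGTCA (which lies inside the first NR5A1 half-site), the E-box CACGTG, the GC box GGGCGG and the CCAAT box CCAAT. CITED2 and NR2F1 have further starts, and only 1 window of each gene is shown. The windows are CITED2 at chr6:139374599-139374898 on the minus strand, NR2F1 at chr5:93582972-93583271 and GATA6 at chr18:22169339-22169638 on the plus strand, and NR5A1 at chr9:124507350-124507649 on the minus strand.
CITED2: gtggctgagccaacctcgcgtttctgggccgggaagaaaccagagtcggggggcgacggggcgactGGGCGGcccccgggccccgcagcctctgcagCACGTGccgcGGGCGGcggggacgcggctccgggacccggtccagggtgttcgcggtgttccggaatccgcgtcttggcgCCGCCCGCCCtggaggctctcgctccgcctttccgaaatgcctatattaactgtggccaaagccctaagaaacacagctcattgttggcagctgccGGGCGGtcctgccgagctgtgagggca
NR2F1: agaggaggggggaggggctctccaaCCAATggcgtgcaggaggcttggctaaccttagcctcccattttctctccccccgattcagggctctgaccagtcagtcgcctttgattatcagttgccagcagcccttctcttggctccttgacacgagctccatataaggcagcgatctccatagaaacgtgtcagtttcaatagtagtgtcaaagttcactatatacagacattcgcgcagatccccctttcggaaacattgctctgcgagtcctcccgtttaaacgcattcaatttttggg
GATA6: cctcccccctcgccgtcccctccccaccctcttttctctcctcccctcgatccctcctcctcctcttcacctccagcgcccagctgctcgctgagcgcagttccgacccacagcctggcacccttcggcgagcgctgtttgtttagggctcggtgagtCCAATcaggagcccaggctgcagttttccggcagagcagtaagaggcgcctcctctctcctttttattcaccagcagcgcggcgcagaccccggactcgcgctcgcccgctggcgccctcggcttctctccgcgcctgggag
NR5A1: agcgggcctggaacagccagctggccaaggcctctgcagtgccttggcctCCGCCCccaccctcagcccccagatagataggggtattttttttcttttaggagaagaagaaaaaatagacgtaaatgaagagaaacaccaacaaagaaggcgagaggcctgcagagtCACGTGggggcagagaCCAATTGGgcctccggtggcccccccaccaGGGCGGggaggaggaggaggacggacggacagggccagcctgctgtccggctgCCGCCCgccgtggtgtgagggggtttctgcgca

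These 4 windows held no match to the cAMP response element or its core, the NR5A1 half-sites, the GATA site or the COUP-TF half-site. Of all 35116 windows of this length, 1.85% held the full element, 24.6% its core, 3.92% and 5.14% the NR5A1 half-sites with T and with C, 10.3% the GATA site and 13.8% the COUP-TF half-site. The CITED2 window had 1 E-box, 153 bases before the start, and 5 GC box matches, of which those at 73 and 69 bases before it overlap. Its GC content was 69.3%, with 33 CG dinucleotides. The NR5A1 window had 1 E-box (82 bases before the start), 3 GC boxes and 2 CCAAT matches. The latter overlap, on opposite strands of the stretch CCAATTGG. The GATA6 and NR2F1 windows each held 1 CCAAT box, 92 and 225 bases before the start. An E-box was found in 7.26%, a GC box in 45% and a CCAAT box in 34.6% of all windows. Over the 8 member genes with a window (14 windows in all, some genes having several starts), the core TGACG occurred in 1, of NR5A2. These matches are letters only, and none was tested for binding.

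CITED2 had 2 kept probe sets, and both were lower after 8-Br-cAMP. Probe set 209357_at gave 227.4, 655.9 and 851.9 on controls 1, 2 and 3, and 98.4, 402.2 and 343.9 on 8-Br-cAMP 1, 2 and 3. Probe set 207980_s_at gave 120.5, 549.4 and 659.4 in controls, and 81.3, 315.5 and 291.0 after treatment. In both, the lowest value of each group was on its number 1 array, and control 1 lay below the treated arrays 2 and 3, so the groups overlapped. For 209357_at the mean log2 signal was 8.97 ± 1.01 (SD, n = 3) in controls and 7.90 ± 1.11 after 8-Br-cAMP. The log2 difference was -1.07, from -1.21, -0.71 and -1.31 in pairs 1, 2 and 3. For 207980_s_at it was -0.85, from -0.57, -0.80 and -1.18. The decrease was thus present within each pair on both probe sets, at sizes from 0.57 to 1.31 on the log2 scale.

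Over the 6 arrays without a block, limma gave CITED2 an adjusted p of 0.650 for 209357_at (95% interval -2.68 to 0.53) and 0.774 for 207980_s_at. With the array number as a replicate block the intervals were -1.61 to -0.54 and -1.39 to -0.31, and the adjusted p 0.0566 and 0.0992, short of 0.05. With both number 1 arrays left out, CITED2 fell by 1.01 and 0.99 on the log2 scale, 2.01-fold and 1.99-fold lower (limma adjusted p = 0.00266 and 0.00167). Its promoter window printed above has 5 GC box matches and its other windows have fewer, and their part in the decrease was not tested. Among the kept probe sets, 5.28% had a more negative mean difference than 209357_at. On both number 1 arrays CITED2 was low against arrays 2 and 3 of the same group, by 1.72 and 1.92 on the log2 scale for 209357_at, and the part of RNA integrity in this was not tested.

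NR2F1, which encodes COUP-TFI, had 1 named probe set, 209505_at. Its signal was 90.3, 296.3 and 314.3 on controls 1, 2 and 3, and 6.0, 124.6 and 117.4 on 8-Br-cAMP 1, 2 and 3. All treated arrays lay below controls 2 and 3, but control 1 lay below treated arrays 2 and 3, and the value of 6.0 is under the filter level. Log2 differences in pairs 1, 2 and 3 were -3.91, -1.25 and -1.42. Their mean was -2.19, and pair 1 was far from the other pairs. Pairs 2 and 3 alone gave -1.33, or 2.52-fold lower (95% interval -1.72 to -0.95, limma adjusted p = 0.000789). Over all 6 arrays the adjusted p was 0.574 without a block and 0.0842 with it (95% interval of the latter -3.50 to -0.89). With pair 2 or pair 3 left out and the block kept, NR2F1 passed as well, at -2.67 (adjusted p = 0.0124) and -2.58 (0.0253). Those fits rest on 2 pairs that lie far apart, of which pair 1, with the value of 6.0, is one, so they add no separate support. Because the value of 6.0 is so low, the mean over 3 pairs depends on how low signals are treated. It was -1.80 with signals raised to a floor at the 20th percentile and -1.58 with a pseudocount of 16. Leaving out 8-Br-cAMP 1 alone, without a block, gave -0.75. That fit kept control 1, the lowest control, without its partner, so it is no mean over pairs.

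GATA6, a zinc-finger factor that acts with NR5A1 on steroidogenic promoters, was the 1 kept member with a higher mean signal after 8-Br-cAMP. Probe set 210002_at gave 538.0, 1024.7 and 1111.6 on controls 1, 2 and 3, and 893.1, 1660.6 and 1592.2 on 8-Br-cAMP 1, 2 and 3. Treated arrays 2 and 3 lay above every control, and 8-Br-cAMP 1 lay above control 1 but below controls 2 and 3. The mean log2 signal was 9.73 ± 0.57 in controls and 10.38 ± 0.50 after treatment (SD, n = 3). Its pairs agreed closely, with log2 differences of 0.73, 0.70 and 0.52, and a mean of 0.65 or 1.57-fold. The limma adjusted p was 0.621 without the block (95% interval -0.27 to 1.57) and 0.113 with it (0.21 to 1.09). With the number 1 arrays left out, GATA6 rose by 0.61 (0.37 to 0.85, adjusted p = 0.00381). The difference stayed under 2-fold in each pair, and 7.80% of kept probe sets had a more positive one.

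**Figure D2:**
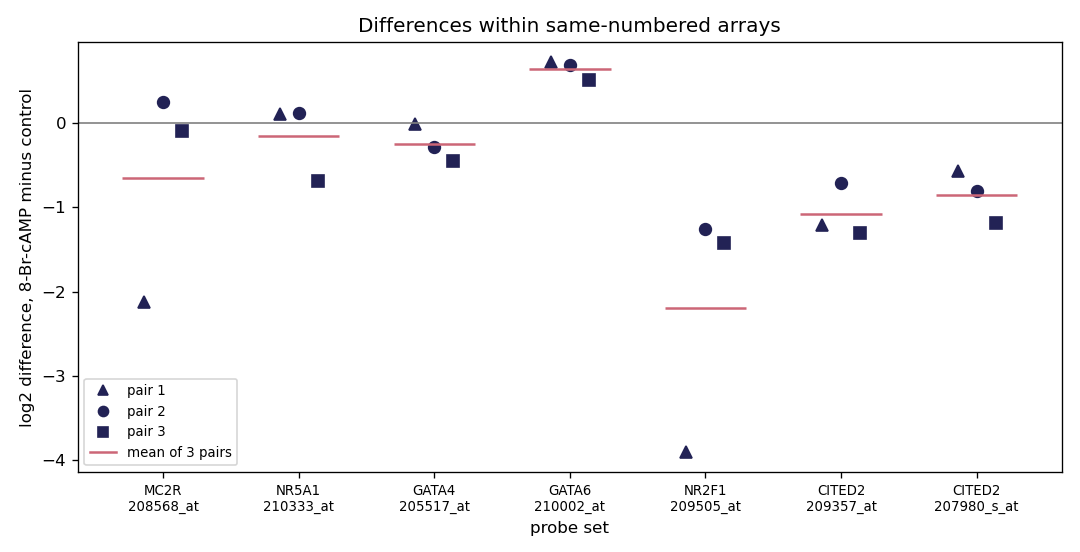
Log2 difference (8-Br-cAMP minus control) within each same-numbered pair of arrays for the 7 kept member probe sets, with the mean of the 3 pairs as a red line. GATA6 lies above 0 in every pair. CITED2, NR2F1 and GATA4 lie below 0 in every pair, GATA4 at only -0.01 in pair 1. The mean of MC2R is set by pair 1, at -2.12.

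NR5A1, the nuclear receptor at the head of the steroidogenic programme, showed no difference beyond the spread of its arrays. Probe set 210333_at gave 84.1, 106.0 and 94.5 on controls 1, 2 and 3, and 90.9, 115.2 and 58.6 on 8-Br-cAMP 1, 2 and 3. The groups overlapped, with the highest and the lowest value both among treated arrays. Log2 differences were 0.11, 0.12 and -0.69 in pairs 1, 2 and 3, with a mean of -0.15 (95% interval -0.97 to 0.66, limma adjusted p = 0.925 without and 0.821 with the block). That interval reaches from 0.512-fold to 1.58-fold, so a change of moderate size was not detectable with these arrays. The mean turned positive, to 0.07, after quantile normalization and on a common median. Unlike CITED2, NR2F1 and GATA6, NR5A1 was not low on both number 1 arrays. Against arrays 2 and 3 of the same group, its log2 difference was -0.25 in controls and 0.15 after treatment. With both left out, the treatment difference was -0.28 (95% interval -1.09 to 0.52, adjusted p = 0.566).

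GATA4, the GATA factor best known from gonads and heart, was near the filter level on every array. Its signals were 52.7, 61.1 and 51.9 on controls 1, 2 and 3, and 52.3, 50.4 and 38.0 on 8-Br-cAMP 1, 2 and 3. Pairs 1, 2 and 3 differed by -0.01, -0.28 and -0.45 on the log2 scale. The groups overlapped, and the mean log2 difference was -0.25 (95% interval -1.09 to 0.60, limma adjusted p = 0.877). It was -0.36 without the number 1 arrays (-1.30 to 0.58, adjusted p = 0.527) and shrank to -0.02 under quantile normalization and on a common median. Signals this low cannot show whether GATA4 is present or changes in these cells.

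MC2R, the ACTH receptor, was measured near or below the filter level by each of its 3 probe sets. Probe set 208568_at gave 91.9, 46.0 and 47.9 on controls 1, 2 and 3, and 21.1, 54.7 and 45.0 on 8-Br-cAMP 1, 2 and 3. Its mean log2 difference of -0.65 (95% interval -1.89 to 0.58, limma adjusted p = 0.733) came from pair 1 at -2.12, while pairs 2 and 3 differed by 0.25 and -0.09. Without the number 1 arrays the difference was 0.08 (-0.86 to 1.01, adjusted p = 0.894). The other probe sets were below the filter, at 3.7 to 32.4 in controls and 6.5 to 10.7 after treatment for 217434_at, and at 3.6 to 32.1 and 2.0 to 44.5 for 217425_at. They gave pair differences of both signs, from -1.86 to 0.81 and from -4.01 to 2.61 on the log2 scale. The mean differences of these 2 probe sets were -0.88 and -0.70, so all 3 means were negative while their single pairs differed in sign. With signals this low the direction of the receptor's own transcript was not detectable.

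NR5A2, the liver and ovary relative of NR5A1, had 3 probe sets, all below the filter. Signals ran from 2.5 to 47.3 for 210174_at, from 5.0 to 61.8 for 208337_s_at and from 0.9 to 15.0 for 208343_s_at over the 6 arrays. On 208337_s_at and 208343_s_at the highest value was on 8-Br-cAMP 1. Mean log2 differences of -0.16, -0.18 and 0.21 came from pair values of opposite signs, which for 208343_s_at ran from -2.94 to 4.06. They were tested only without a filter, with and without the block, where 0 of the 12 member probe sets passed.

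**Figure D3:**
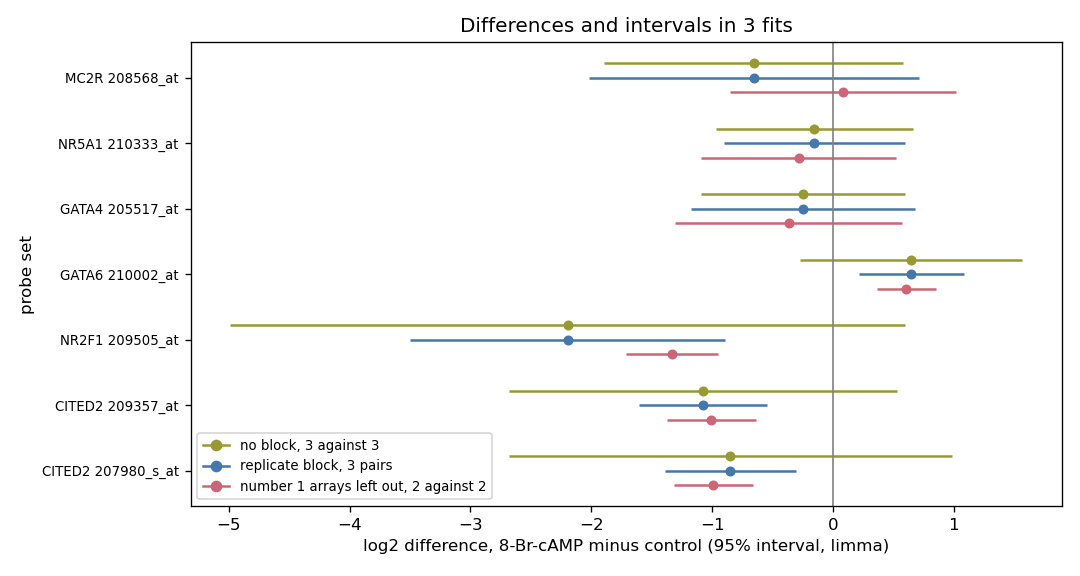
Mean log2 difference (8-Br-cAMP minus control) with its 95% interval from limma for the 7 kept member probe sets in 3 fits: all arrays without a block, all arrays with the array number as a block, and arrays 2 and 3 alone. The intervals of GATA6, NR2F1 and both CITED2 probe sets exclude 0 in the last 2 fits, and those of MC2R, NR5A1 and GATA4 include it in all 3.

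Counted over the members, limma called 0 of 7 kept probe sets without the block, and 0 had an unadjusted p under 0.05. The background was 0% of 13329, with 1474 at an unadjusted p under 0.05. With the block it called 0 of 7 against a background of 3.21%, and 4 of 7, those of CITED2, NR2F1 and GATA6, had an unadjusted p under 0.05, as had 2839 of the 13329. With the number 1 arrays left out, 1 of 7 rose (background 12.1%) and 3 of 7, for 2 genes, fell (background 18.7%). Of those that fell, NR2F1 had passed the filter only through its control arrays. These last calls rest on 2 arrays a group, whose log2 signals had a correlation of 0.961 (controls) and 0.980 (treated), so their p-values may reflect technical spread alone. The same sign in all 3 pairs was found for 5 of 7, against 44.1% of all kept probe sets. These were both CITED2 probe sets and those of NR2F1, GATA6 and GATA4, the last near the filter level and at -0.01 in pair 1. No member had groups free of overlap, against 18.5%. The selection in the series' design text, a 2-fold change together with an unadjusted p under 0.05, took 0 of 7 without the block, against 6.6% of kept probe sets. CITED2 (209357_at) and NR2F1 met its fold but not its p, at 0.159 and 0.106.

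Genes related to the members by family, development or partnership were counted next, at 1 probe set per gene. Without the block limma called 0 of the 43 kept genes of these lists (11 had an unadjusted p under 0.05) and 0 of all 7927 (947). The background over all genes was 1.73% higher and 1.96% lower with the block, and 12.8% higher and 20.5% lower without the number 1 arrays. A listed gene without a probe set under the symbol rule was not measured. Of 6 melanocortin receptors and accessory proteins, 4 had a probe set, 2 were kept and neither passed in any of these fits. MC1R, the receptor of melanocytes, had signals of 159.4, 231.9 and 259 in controls and 245.1, 314.7 and 283.5 after 8-Br-cAMP (log2 difference 0.40, block adjusted p = 0.354). MC4R, the receptor of appetite circuits, stayed near the filter level, at 36.3 to 89.8 in controls and 39.5 to 62.8 after treatment.

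Of 7 relatives of GATA4, NR2F1 and their cofactors, 5 had a probe set, 3 were kept and 0 passed with the block. NR2F6, another receptor of the COUP-TF group, gave 487.3, 502.9 and 452.4 in controls, and 619.3, 179.9 and 171.5 after 8-Br-cAMP. Its pairs differed by 0.35, -1.48 and -1.40 on the log2 scale. Unlike NR2F1 it was thus higher in pair 1, and it fell by 1.44 without the number 1 arrays (limma adjusted p = 0.000280). GATA2, a factor of blood stem cells, gave 69.4 to 121.3 over the 6 arrays with overlapping groups (log2 difference 0.20, block adjusted p = 0.753).

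Of 20 transcription factors and signals of adrenal development, 17 had a probe set and 9 were kept. With the block 0 rose and 1 fell, MEIS1. Its protein is a homeodomain partner of PBX and HOX factors. MEIS1 gave 555.8, 307.6 and 321.9 on controls 1, 2 and 3, and 180.2, 147.7 and 148.3 after treatment, with no overlap between groups. It fell by 1.27 on the log2 scale (SE 0.23, block adjusted p = 0.0435), and by 1.09 without the number 1 arrays. Its adjusted p without the block was 0.192. The call with the block was kept in 1 of 4 alternatives that changed the normalization, the trend or the filter (adjusted p 0.0444 to 0.126). Without the number 1 arrays 1 of the 9 rose and 2 fell. The list's median log2 difference was -0.33, against -0.14 for all genes.

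Of 27 coregulators and modifiers of NR5A1 or CITED2, 19 had a probe set and 15 were kept. With the block 0 passed, and the median log2 difference was -0.41. Without the number 1 arrays 2 rose and 5 fell, and the median was -0.05 against -0.18 for all genes. NRIP1, a corepressor of nuclear receptors, gave 1118.6, 1008.3 and 876.6 in controls and 417.4, 524.9 and 617 after 8-Br-cAMP. No treated value reached a control value, and the log2 difference was -0.96 (block adjusted p = 0.0824). NCOA2, a p160 coactivator, gave 788.4, 562.5 and 647.7 in controls and 324.9, 379.6 and 421 after 8-Br-cAMP, again without overlap (-0.82, block adjusted p = 0.110).

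Genes whose promoters are known to bind NR5A1 had mostly higher signals. Of 21 listed 18 had a probe set and 14 were kept. With the block 6 rose, 0 fell and 8 did not pass, while 9 rose and 0 fell without the number 1 arrays. The list's median log2 difference was 1.26, against -0.14 for all genes. CYP11B2 and CYP19A1 passed the filter only through the treated arrays, as their control means of 5.32 and 4.99 were under its level of 5.51 (log2). Their positive sign was thus favoured by the filter. The list's median was 1.21 without the number 1 arrays, where CGA turned to -0.41. CYP11B1, for 11-beta-hydroxylase (2.59, block adjusted p = 0.00805), FDX1, the electron donor of mitochondrial P450s (2.17, 0.00879), CYP11A1, for side-chain cleavage (2.31, 0.00901), and the lipoprotein receptor SCARB1 (1.99, 0.0142) had the smallest adjusted p (log2 differences). Over the same 4 alternatives SCARB1 was called in 3 and the other 3 genes in each. The remaining 2 genes, CYP17A1 and INHA, which were named after their values were seen, were called in 1 and 2 of them. On the same arrays NR5A1 itself differed by -0.15. The list was chosen with values of these genes known, so it is no independent support.

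**Figure D4:**
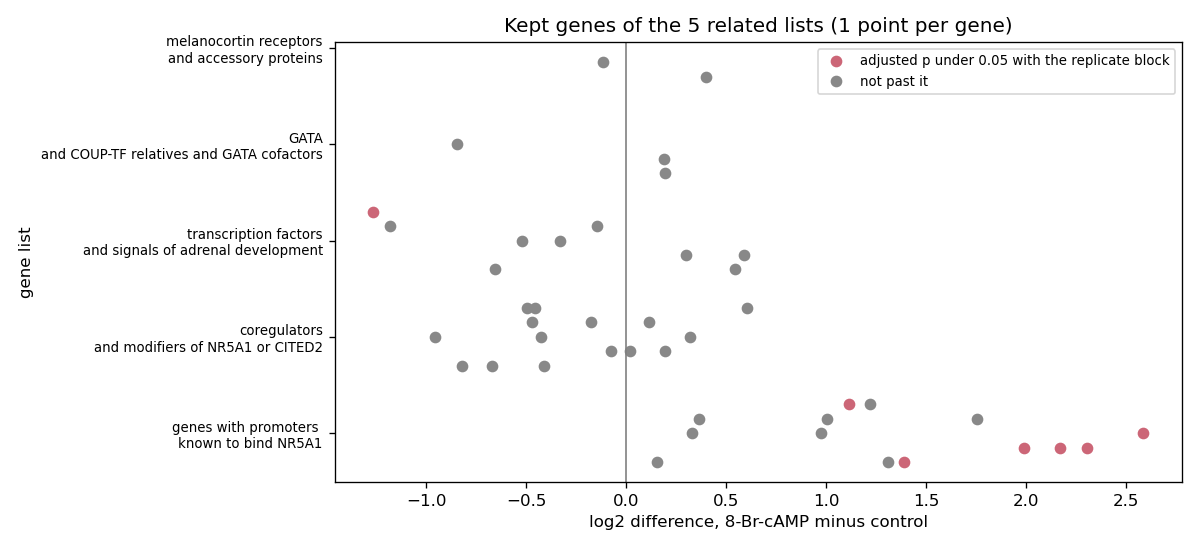
Log2 difference (8-Br-cAMP minus control) of each kept gene in 5 lists related to the members, 1 point per gene and 1 row of points per list, red where the adjusted p with the replicate block is under 0.05. All 14 kept genes with NR5A1-bound promoters lie above 0, 6 of them in red, and MEIS1 is the red point among adrenal development genes at -1.27. Of the 14, CYP11B2 and CYP19A1 passed the filter only through the treated arrays.

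The genes whose pattern over the 6 arrays lay nearest to a member were found by the root mean square distance between log2 signals centred on each gene's mean, among 7921 genes. Nearest to GATA6 were MKNK2, a kinase that acts on translation initiation, FADS3, of the fatty acid desaturase family, and UTP3, a nucleolar protein, at 0.05, 0.05 and 0.08 (median of all genes 0.74). MKNK2 gave 1826.9, 3198 and 3444.8 in controls and 2900.6, 5218.1 and 5227.9 after 8-Br-cAMP, with its lowest value of each group on array 1, as for GATA6. Nearest to CITED2 were FERMT2, an integrin-binding protein, LMO4, a LIM-only regulator, and WDR19, a protein of cilia, at 0.18, 0.20 and 0.22 (median 1.09). FERMT2 gave 476.7, 1395.6 and 1412.5 in controls and 212.6, 638.5 and 656.8 after treatment, so it too was low on both number 1 arrays. Nearest to NR5A1 were ZNF688, TRIM14 and AFTPH, at 0.08, 0.12 and 0.13 (median 0.53), all with their lowest value on 8-Br-cAMP 3. Nearest to MC2R were RESF1, ZNF107 and TSPAN12, at 0.16, 0.17 and 0.17 (median 0.77), all highest on control 1 and lowest on 8-Br-cAMP 1. These likenesses over 6 arrays are a description and carry no test.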

How the data were processed

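Intensity values, 1 per probe set and array on a linear scale, were made by the authors with GCOS 1.3 per the labels' protocols. The 2% trimmed means of the deposited columns lay between 250 and 250.2, so no further normalization was applied. A shift of most transcripts in 1 direction would not be seen. The labels speak of 3 plates and of 3 separate experiments without tying arrays to either, so p-values cover only the spread among these arrays, which may be technical. The precision is limited by their number.

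Of 22277 probe sets, 62 array controls were left out. The annotation gave 1 symbol for 19064, several for 1043 and none for 2108. Log2 signals were filtered at the 40th percentile of the mean, and limma 3.58.1 (R 4.3.3, lmFit, eBayes with an intensity trend, two-sided) was fitted without a block, with Benjamini-Hochberg adjustment over 13329 probe sets and a threshold of 0.05. The fit was tried on simulated data with independent noise, as a check that planted differences were recovered. It does not show how the fit behaves on these arrays. Same-numbered arrays deviated together from their group means (correlations 0.603, 0.378 and 0.538), and the numbers were taken as pairs. Within a group such deviations cancel out, so a shift shared by both number 1 arrays makes the other arrays deviate together, however matched. The correlations therefore cannot show which of the other arrays belong together. Their pairing rests on the array numbers alone and was not tested.

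Members and lists were chosen with earlier results of these data known. Besides the members, per list up to 4 genes passing with the block, or else the 2 with the smallest p, and the 3 nearest patterns of 4 measured members are named. In counts a gene stands by its probe set with the highest mean. Promoters are RefSeq's (GRCh38.p14), and the motifs were picked after the signals were seen. Alternatives covered normalization, filter, floor, pseudocount, variance model, arrays left out and the selection of the design text.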

Additional observations from a re-analysis of the deposited data

How the results depend on the processing

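Of 24 alternatives, 4 called any member probe set. These were the fit without both number 1 arrays (4 called, against 0 as reported) and the fits with the replicate block and pair 1, 2 or 3 left out (4, 1 and 1 called), while all 3 pairs with the replicate block called 0. With 1 array left out 0 were called. Over these leave-one-out fits the log2 difference ran from -1.65 to -0.43 for CITED2, from -2.94 to -0.75 for NR2F1, from 0.32 to 0.94 for GATA6, from -0.93 to -0.24 for MC2R and from -0.37 to 0.12 for NR5A1. Without pair 1, in both fits, it was -1.01, -1.33 and 0.61 for CITED2, NR2F1 and GATA6, all past the threshold, and 0.080 for MC2R, whose sign turned. NR2F1 also passed at -2.67 and -2.58 without pair 2 and pair 3, in fits that keep its value under the filter on 8-Br-cAMP 1. The sign of NR5A1 turned with quantile normalization (0.069) and with a common median (0.073), with or without the block, and without pair 3 (0.12). GATA4, CITED2, NR2F1 and GATA6 kept their direction in every alternative that gave a value. The number of genes called in the 5 related lists, 0 as reported, was 7 with the replicate block. With the block it was 5 under quantile normalization, 4 with a common median, 3 without a trend and 7 without the filter, and 22, 5 and 6 without pair 1, 2 and 3. It was 20 without both number 1 arrays, 0 to 1 with 1 array left out and 8 under the selection of the design text. The cause of these changes was not tested. At the 60th percentile filter 3 member probe sets, of CITED2 and GATA6, were left to test. Over all kept probe sets the median difference on the log2 scale was -0.13 as deposited, -0.03 after quantile normalization and 0.09 on a common median. Signals near background limit what can be said of MC2R, NR5A2 and GATA4.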
